A study of Homo sapiens with 12 samples.

Results

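The comparison of sh1319 with the control hairpin in MIA PaCa-2 cells rests on 4 of the 12 arrays of the series, 2 for each hairpin. MIA PaCa-2 is an established cell line from a human pancreatic ductal adenocarcinoma (PDAC). Its members were the probes, spike-in controls aside, that had a detection p-value under 0.05 on both arrays of at least 1 of these hairpins. This rule left 15856 of 47228 probes, which carry 12608 of the 34599 gene names of the array. Of these probes, 12960 were detected on both arrays of both hairpins, 1611 on both arrays of sh1319 alone and 1285 on both arrays of shCtrl alone. At the edge of the rule, 400 members entered with a detection p-value over 0.04 in their better hairpin and had a median intensity of 97.7. A further 527 probes missed it with a value under 0.06 and a median intensity of 97.1.

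The platform was the Illumina HumanHT-12 v4 array, in which a bead-bound probe reports the brightness of 1 labelled transcript. The control cells carried a scrambled shRNA (shCtrl), and the others carried sh1319, which was made against focal adhesion kinase (FAK). Every group shared a puromycin-selected PLKO.1 tet-on backbone, in which doxycycline switches the hairpin on, and every group received doxycycline at 50 ng/ml for 96 hours, so each knockdown was set against a control that had the drug as well. MIA PaCa-2 grew in puromycin at 3.5 ug/ml and Capan-1, a second PDAC line used for comparison, at 1.5 ug/ml. Each array used 500 ng of RNA. The other FAK hairpin of the study, sh1209, was measured in both lines. The cells of a group were a stably selected population, and the sources used here do not say whether its 2 arrays came from separate cultures, so the p-values measure the spread between these arrays, which may be technical.

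FAK is a cytoplasmic tyrosine kinase encoded by PTK2. It is recruited to focal adhesions when integrins bind collagen or fibronectin, phosphorylates itself, and together with SRC passes the signal to paxillin, p130Cas, RAS and ERK, PI3K and the small GTPases that shape the actin cytoskeleton. In pancreatic cancer it links the dense collagen matrix to survival, migration and growth. A short hairpin RNA is cut to a small RNA that guides Argonaute to matching transcripts, and different hairpins against 1 gene share the target but not their other matches. For that reason sh1209 and sh1319 in Capan-1 serve as comparisons for the largest changes and for a part of the gene lists.

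Replicates correlated at 0.9907 for shCtrl and 0.9925 for sh1319 across the tested probes. Detected probes numbered 16601 and 16596 with shCtrl and 16259 and 17205 with sh1319. Most markers of other cell types were undetected with both hairpins. PDGFRA, PDGFRB, FAP, LUM, DCN and THY1 (fibroblasts), LYZ, NKG7 and TYROBP (immune cells) and VWF, KDR and CDH5 (endothelium) were not detected on any of the 4 arrays. The summed linear level of the 10 immune markers, of which CD68 and HLA-DRA were detected on all 4 arrays, was 469 to 484 with shCtrl and 336 to 378 with sh1319. That of the 8 endothelial markers was 54.3 to 77 and 48.1 to 52.2. Among the latter EMCN was at least 1.56-fold higher and ESAM at least 1.93-fold lower with sh1319. Of 12 epithelial genes known as high in Capan-1, CDH1, CEACAM5, CEACAM6, EPCAM, CLDN7 and ESRP1 were undetected on the 4 MIA PaCa-2 arrays, CLDN4, ELF3 and LCN2 were detected on 1 array of each hairpin and MUC1 on all 4. KRT19 was detected on both control arrays and 1 sh1319 array (log2 change -1.47), and KRT7 was undetected in the controls and at least 1.12-fold higher with sh1319, a call lost under median scaling.

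PTK2 fell with sh1319. Its brighter probe read 9.45 and 9.46 on the shCtrl arrays and 6.92 and 7.03 on the sh1319 arrays, in normalised log2 intensity. The sh1319 arrays therefore lay below both control arrays, at 17.9% of the control level, a log2 change of -2.48 ± 0.11 (SE, n = 2 against 2, limma adjusted p = 5.2e-08). With sh1209 the same probe read 7.28 and 7.14, and the 2 hairpins did not differ past the threshold (log2 difference -0.24 ± 0.11, adjusted p = 0.17). In Capan-1 sh1319 lowered it by less (log2 change -1.78, adjusted p = 5.9e-06), and the difference between the lines passed the threshold (-0.71 ± 0.16, adjusted p = 0.014). The second PTK2 probe was dim, at 5.16 and 4.92 with shCtrl and 4.98 and 4.54 with sh1319, and did not pass (log2 change -0.29, adjusted p = 0.25).

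Beyond its target, sh1319 was followed by changes on both sides of 0. Of the 24207 probes tested, 5887 passed an adjusted p of 0.05, which is 24.3%, and 5794 of them were members. Among the members 2913 were higher and 2881 lower with sh1319, and at a log2 change of at least 1 there were 725 higher and 655 lower. Members that entered through sh1319 alone had 684 higher and 0 lower. Those that entered through shCtrl alone had 507 lower and 0 higher, and the member rule favours these directions. Members detected on both arrays of both hairpins had 2229 higher and 2374 lower, and 512 and 524 at a log2 change of at least 1. All 5887 had both sh1319 arrays beyond both control arrays. With 2 arrays against 2 this was common: among the 24207 probes tested, 6818 had both sh1319 arrays above both control arrays and 6953 had both below. Median scaling in place of quantile normalization left 3846 probes past the threshold, 2562 higher and 1284 lower, so 66.6% of the calls were higher in place of 50.3%. List counts below come from quantile normalization, and the count under median scaling is added where it differs by over 1.5 times. Counted with 1 probe a gene, 12.5% of 18857 genes were higher and 12.3% lower, and the median change was -0.01. Each gene group is read against those shares. For sh1209 against shCtrl in MIA PaCa-2, 1766 of the 18857 genes were higher and 1681 lower. For sh1319 against shCtrl in Capan-1, 1404 were higher and 1297 lower. The share of every list in each direction appears in the plot of gene lists.

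**Figure D1:**
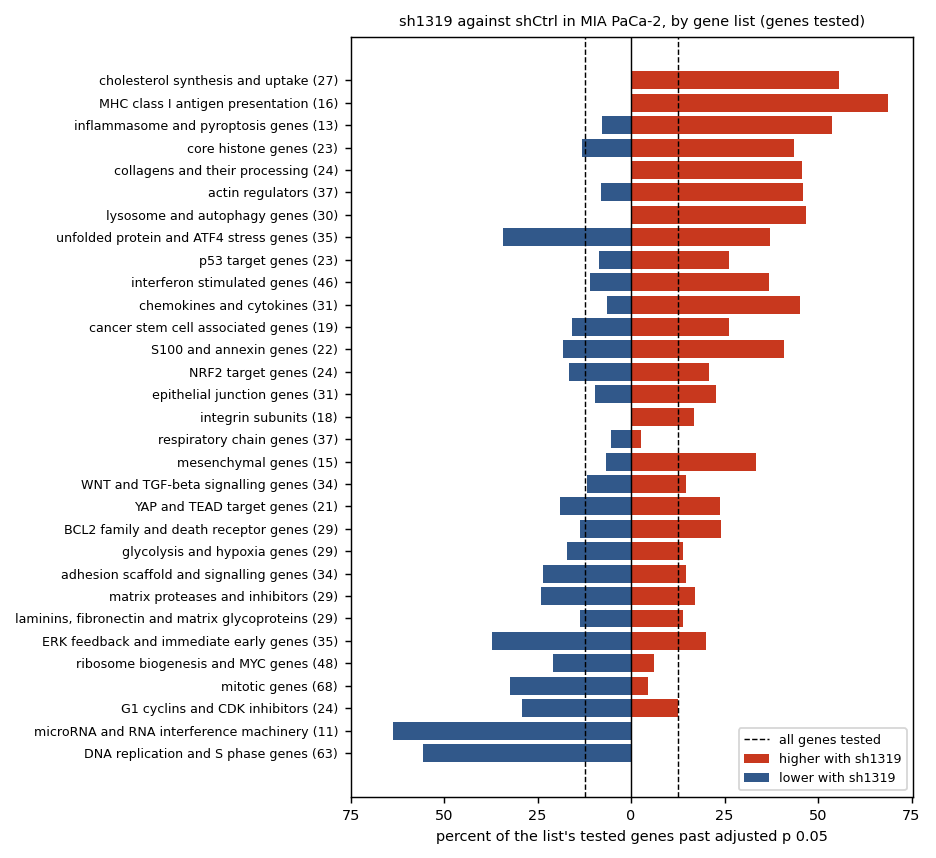
Percent of the tested genes of each list that were higher (red, to the right) or lower (blue, to the left) with sh1319 than with shCtrl in MIA PaCa-2 at an adjusted p of 0.05, with the number tested in brackets and lists ordered by median change. The dashed lines are the shares over all genes, 12.5% higher and 12.3% lower; MHC class I reaches 68.8% higher and DNA replication 55.6% lower.

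The 12 largest rises covered metabolism, the cytoskeleton, inflammation and the matrix. AKR1C4, a hydroxysteroid dehydrogenase of the aldo-keto reductase family, read 5.81 and 6.11 with shCtrl and 11.98 and 11.99 with sh1319, a 65.0-fold rise (log2 change 6.02 ± 0.13, adjusted p = 1.2e-10). Its family members are near identical, so the transcript measured is uncertain, and a second AKR1C4 probe was undetected on the 4 arrays. PDLIM1, which ties alpha-actinin to actin stress fibres, read 4.30 and 4.36 against 10.11 and 10.01. It was undetected in the controls and at least 40.9-fold higher. CASP1, the protease that cuts pro-interleukin-1 beta, was undetected in the controls as well and rose at least 32.7-fold (4.28 and 4.22 against 9.67 and 9.81). For each of these genes both sh1319 arrays lay above both control arrays, which was a condition for being picked.

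The other rises of this size were in HAS3, ANXA10, SFN, RN7SK, ADTRP, IL1B, TGFBR3, COL1A2 and CLDN1, with log2 changes from 5.38 to 4.29. HAS3, which makes hyaluronan for the pericellular coat, read 4.79 and 4.64 with shCtrl and 10.15 and 10.04 with sh1319, and its second probe moved by less (1.38). ANXA10, a calcium-dependent membrane-binding annexin, was at least 35.6-fold higher. SFN, the 14-3-3 sigma protein that holds cells in G2, was at least 18.9-fold higher. TGFBR3, the betaglycan co-receptor that presents TGF-beta, read 6.03 and 6.23 against 10.60 and 10.36. CLDN1, a tight junction claudin, read 6.08 and 5.98 against 10.28 and 10.38. ADTRP, a membrane hydrolase named C6ORF105 in the file, rose by 4.48 and was the one of the 12 with the largest rise in Capan-1 as well (2.41, adjusted p = 4.8e-07).

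All 12 of these genes were also higher with sh1209 than with shCtrl, by between 1.26 (RN7SK) and 4.73 (AKR1C4), and each was higher again with sh1319 than with sh1209. Those differences between the hairpins ran from 0.93 for IL1B (adjusted p = 0.00027) to 3.47 for ANXA10 (adjusted p = 2.5e-08). Both hairpins were set against the same shCtrl arrays, so their changes share whatever is particular to those arrays. The plot of named genes shows the sh1209 arrays between the other hairpins for each rise.

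**Figure D2:**
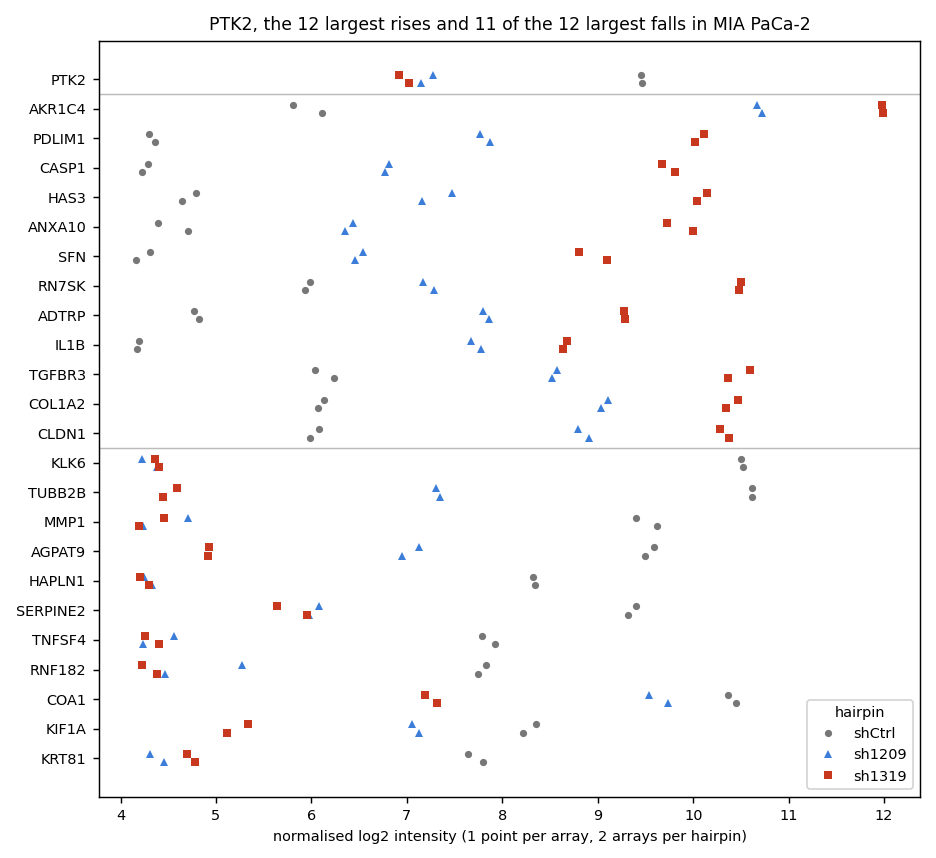
Normalised log2 intensity of PTK2, the 12 largest rises and 11 of the 12 largest falls in MIA PaCa-2, 1 point per array and 2 arrays for each of shCtrl (grey circles), sh1209 (blue triangles) and sh1319 (red squares). PTK2 sits at 9.45 and 9.46 with shCtrl and at 6.92 and 7.03 with sh1319. No sh1319 point overlaps a shCtrl point for any gene drawn, which for the rises and falls was a condition of their choice.

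The largest falls were in secreted proteases, neuronal tubulin and kinesin genes and matrix genes. KLK6, a secreted kallikrein protease, read 10.50 and 10.52 with shCtrl and 4.36 and 4.40 with sh1319, where it was undetected and at least 56.0-fold lower (log2 change -6.13 ± 0.12, adjusted p = 9.2e-11). A second KLK6 probe did not pass (-0.43, adjusted p = 0.13). TUBB2B, a neuronal beta-tubulin, read 10.61 and 10.61 against 4.59 and 4.45, at least 60.1-fold lower. MMP1, the interstitial collagenase that cuts type I collagen, read 9.40 and 9.62 against 4.45 and 4.20, at least 28.0-fold lower. These 3 genes were detected on both control arrays and on neither sh1319 array.

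AGPAT9, a glycerol-3-phosphate acyltransferase of triglyceride synthesis, read 9.59 and 9.50 with shCtrl and 4.92 and 4.91 with sh1319. HAPLN1, which links hyaluronan to proteoglycans, fell at least 12.3-fold, TNFSF4 (OX40 ligand) at least 8.91-fold and RNF182, a ubiquitin ligase, at least 8.50-fold. SERPINE2, an inhibitor of thrombin and urokinase, fell by 3.56 on the log2 scale, KIF1A, a kinesin of axonal transport, by 3.06, and KRT81, a hair keratin whose relatives are near identical in sequence, by 2.98. COA1 (C7ORF44 in the file), an assembly factor of the respiratory chain, read 10.37 and 10.44 with shCtrl and 7.19 and 7.31 with sh1319.

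The falls divided by hairpin. KLK6, MMP1, HAPLN1, TNFSF4, SERPINE2, RNF182 and KRT81 were low with sh1209 as well (-6.21, -5.04, -4.04, -3.46, -3.33, -2.92 and -3.33), and the hairpins did not differ past the threshold for any of the 7, with differences from -0.57 to 0.35. TUBB2B, AGPAT9 and KIF1A fell with sh1209 too (-3.29, -2.51 and -1.19) and were lower again with sh1319, by 2.81, 2.12 and 1.87 on the log2 scale. COA1 changed by -0.77 with sh1209 and by -3.16 with sh1319.

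Among the pathway lists, cholesterol synthesis and uptake had the highest median change, 0.71, against -0.01 over all genes. Of its 27 tested genes 15 were higher and 0 lower with sh1319 (16 and 0 under median scaling), which is 55.6% where the background is 12.5%. MSMO1, the sterol C4 methyl oxidase, read 8.69 and 8.33 with shCtrl and 10.81 and 10.68 with sh1319 (log2 change 2.24 ± 0.15, adjusted p = 7.6e-07). HMGCS1, which makes HMG-CoA, read 8.64 and 8.79 against 10.76 and 10.62 (1.97, adjusted p = 4.9e-07). DHCR7, a late reductase of the pathway, rose by 1.91, SQLE, the squalene epoxidase, by 1.24 and TM7SF2, a sterol C14 reductase, by 1.12.

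With sh1209 the same list had a median change of -0.07, with 2 genes higher and 7 lower than shCtrl, and 16 of the 27 were higher with sh1319 than with sh1209 against 11.1% of all genes. MSMO1 with sh1209 changed by -0.49, HMGCS1 by -0.21 and IDI1, the isopentenyl diphosphate isomerase, by -1.07. In Capan-1 the median change with sh1319 was 0.12, with 7 higher and 0 lower, and the change differed between the lines for HMGCS1, MSMO1 and DHCR7 (adjusted p = 3e-05, 0.00011 and 0.00033). The transcription factor genes SREBF1 and SREBF2 themselves did not pass.

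**Figure D3:**
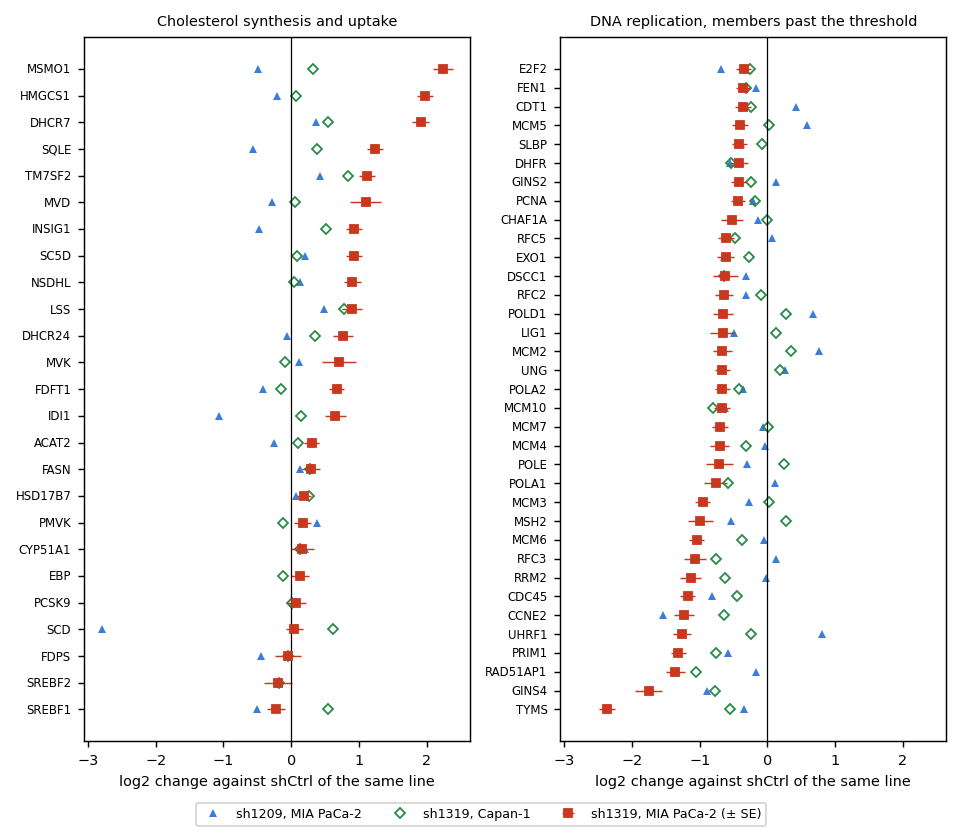
Log2 change against the shCtrl of the same line for 25 of the 27 cholesterol genes (left) and the 35 DNA replication genes past the threshold (right): sh1319 in MIA PaCa-2 (red squares, bars are the SE), sh1209 in MIA PaCa-2 (blue triangles) and sh1319 in Capan-1 (green diamonds). The red squares reach 2.24 for MSMO1 and -2.37 for TYMS, whose blue triangles are at -0.49 and -0.35.

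Genes of DNA replication and S phase went the other way. Of 63 tested, 0 were higher and 35 lower with sh1319, 55.6% against a background of 12.3%, with a median change of -0.43. Under median scaling 14 of them were lower and 0 higher, with a median of -0.32. TYMS, the thymidylate synthase that makes dTMP, read 11.38 and 11.38 with shCtrl and 9.0 and 9.03 with sh1319 (-2.37 ± 0.11, adjusted p = 7.2e-08). MCM6, a subunit of the replicative helicase, read 10.59 and 10.46 against 9.51 and 9.45 (-1.05, adjusted p = 2.8e-05). PRIM1, the DNA primase, fell by 1.31, CDC45, the helicase cofactor, by 1.18, UHRF1, which reads hemimethylated DNA, by 1.26 and RAD51AP1, of recombination repair, by 1.36. With sh1209 the median was -0.12, with 7 genes higher and 14 lower, and 26 of the 63 were lower with sh1319 than with sh1209, where 11.8% of all genes were. In Capan-1 sh1319 left 17 lower and 0 higher.

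Of 68 mitotic genes tested, 22 were lower and 3 higher, with a median of -0.23, and 9 were lower and 3 higher under median scaling. FOXM1, the transcription factor of the G2/M programme, read 7.59 and 7.74 with shCtrl and 5.70 and 5.74 with sh1319 (-1.94, adjusted p = 2.2e-06), and with sh1209 it changed by 0.18 (adjusted p = 0.45). PLK4, the kinase of centriole duplication, fell by 1.10, BUB3 and MAD2L1 of the spindle checkpoint by 1.01 and 1.20, AURKA by 0.99 and CDC2, the mitotic cyclin-dependent kinase, by 0.96. In Capan-1 24 of the list were lower and 0 higher with sh1319.

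Among the G1 cyclins and CDK inhibitors, 7 of 24 were lower and 3 higher, and 4 were lower and 2 higher under median scaling. CCND2, cyclin D2, was undetected in the controls (4.18 and 4.39) and read 7.73 and 7.95 with sh1319, at least 8.77-fold higher. SKP2, which targets p27 for degradation, read 10.03 and 9.96 against 7.75 and 7.92 (-2.16, adjusted p = 7.2e-07), and CKS1B, its cofactor, fell by 1.34. CDK6 fell by 1.50, CDK2 by 0.80 and CCNG2 by 0.61. The other genes that rose were CCNG1 (0.35) and E2F4 (0.44). Of 23 core histone genes 10 were higher and 3 lower (8 and 1 under median scaling), led by H2BC5 (1.18), H2AC18 (1.27) and H2AC6 (1.10), while H3-3B and H4C3 fell by 0.88 and 0.69. Histone genes are near copies of each other, so single members are uncertain. Ribosome biogenesis genes had 10 lower and 3 higher of 48 (GNL3 -1.16, LYAR -0.95), and 4 lower and 4 higher under median scaling. The 3 that rose were MAX (0.70), GRWD1 (0.55) and MYC (0.37).

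The promoter stretches below are shown because DNA replication genes and interferon-stimulated genes, which had 35 of 63 lower and 17 of 46 higher, have well-known promoter elements, those bound by E2F factors and by interferon-activated factors. The E2F motif was searched as TTTCCCGC, TTTGGCGC, TTTGCCGC or TTTCGCGC, and the interferon-stimulated response element (ISRE) as GAAA, any 2 bases and GAAA, on both strands, in the window from 250 bases before to 50 after the RefSeq start in GRCh38.p14. For each list the 3 genes with the smallest adjusted p among those that moved in its main direction and held the motif before the start are shown, in bases before the start alone, 5′ to 3′ on the gene's strand, with matches in capitals.
TYMS, chr18:657569-657652, + strand: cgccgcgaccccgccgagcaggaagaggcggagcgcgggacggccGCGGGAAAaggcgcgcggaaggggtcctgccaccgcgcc
MCM6, chr2:135876539-135876640, - strand: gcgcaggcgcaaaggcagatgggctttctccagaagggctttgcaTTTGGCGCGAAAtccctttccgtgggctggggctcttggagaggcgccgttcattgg
UHRF1, chr19:4909442-4909500, + strand: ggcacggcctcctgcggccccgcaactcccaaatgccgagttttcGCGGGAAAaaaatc
BST2, chr19:17405700-17405805, - strand: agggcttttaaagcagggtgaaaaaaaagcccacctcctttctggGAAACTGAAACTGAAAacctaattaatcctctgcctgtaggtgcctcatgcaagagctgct
LGALS3BP, chr17:78979927-78980026, - strand: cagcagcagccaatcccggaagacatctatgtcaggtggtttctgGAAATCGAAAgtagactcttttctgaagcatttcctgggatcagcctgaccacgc
IFIH1, chr2:162318783-162318888, - strand: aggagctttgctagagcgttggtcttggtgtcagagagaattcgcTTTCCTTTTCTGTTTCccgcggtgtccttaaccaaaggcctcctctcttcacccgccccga
In MCM6 and IFIH1 overlapping matches merged into 1 run, and so did those of BST2. Of the 63 replication genes 50 had a window, and 24 of these (48%) held an E2F match, against 3.33% of all 27305 windows. The share was 57.1% of the 28 that fell and 36.4% of the 22 not past the threshold. Of the 46 interferon genes 37 had a window, and 67.6% held an ISRE match, against 3.65% of all windows, with 75% of the 16 that rose and 64.7% of the 17 not past the threshold. A sterol response element searched as TCACNCCAC was found in 1 of 19 windows of the cholesterol list, that of SREBF2, and in 1.15% of all. A match is a description of the letters alone.

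Of 13 inflammasome and pyroptosis genes 7 rose and 1 fell. IL1B, the pro-inflammatory cytokine that CASP1 activates, was undetected in the controls (4.19 and 4.18) and read 8.68 and 8.63 with sh1319, at least 15.4-fold higher. CARD16, a CASP1 regulator, was at least 4.26-fold higher and CARD17P, a related gene of the same cluster, at least 3.72-fold. CASP4, the caspase that senses lipopolysaccharide, rose by 0.91. GSDME, the gasdermin cut by caspase-3 and named DFNA5 in the file, was the gene that fell (-1.15). With sh1209 6 of the list were higher and 1 lower. In Capan-1 4 of the list were higher and 1 lower with sh1319. The named CASP1 probe was undetected on both control arrays there, and IL1B fell (-0.47, adjusted p = 0.033).

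Of 31 chemokine and cytokine genes 14 rose and 2 fell, 13 and 1 under median scaling. IL1A was at least 3.06-fold higher and IL32, a cytokine of NF-kB activation, at least 3.86-fold. IL1RAP and IL1R1 together form the interleukin-1 receptor. IL1RAP was at least 2.91-fold higher, IL1R1 rose by 1.42 and NFKBIA, the NF-kB inhibitor, by 1.14. The falls were in LIFR, the receptor of leukaemia inhibitory factor (at least 1.43-fold lower), and CXCL8, the neutrophil chemokine interleukin-8 (-0.53). The neutrophil chemokine CXCL5 separated the hairpins: it read 9.61 and 9.47 with shCtrl, 6.79 and 6.79 with sh1209 and 10.40 and 10.72 with sh1319 (sh1319 minus sh1209 3.77, adjusted p = 2.4e-08). Of the list 13 genes were higher with sh1319 than with sh1209 and 1 was lower. In Capan-1 14 of the list were higher and 2 lower with sh1319 than with shCtrl.

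MHC class I antigen presentation had the highest share, with 11 of 16 genes higher and 0 lower under both scalings and a median change of 0.66. PSMB8 and PSMB9 are immunoproteasome subunits. PSMB8 read 6.12 and 6.19 with shCtrl and 8.03 and 7.76 with sh1319 (1.74, adjusted p = 5.7e-06) and PSMB9 rose by 1.29. A dim further probe of PSMB8 did not pass (adjusted p = 0.73). HLA-B rose by 1.08, HLA-F by 0.90, CALR, the calreticulin chaperone, by 1.08 and TAPBP, the tapasin that loads peptides, by 0.96. The HLA heavy chains are close relatives, and their probes may share transcripts. With sh1209 3 of the list were higher and 2 lower, among them PSMB8 (-1.21) and HLA-B (-0.73). In Capan-1 7 were higher and 0 lower.

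Interferon-stimulated genes had 17 higher and 5 lower of 46, with 24 not past the threshold, and 17 higher and 2 lower under median scaling. BST2, the tetherin that holds budding virus, read 4.81 and 5.49 with shCtrl and 8.99 and 8.92 with sh1319 (3.81, adjusted p = 9.7e-08). LGALS3BP was at least 3.12-fold higher and IFIH1, the RNA sensor MDA5, at least 2.25-fold. ISG20 and ISG15 rose by 1.29 and 1.08 and HERC6 by 1.25, while IFITM1 and IRF9, part of the ISGF3 factor, fell by 1.01 and 0.99. In Capan-1 9 of the list were higher and 13 lower with sh1319, and by the test of the difference between the lines 17 members changed more positively in MIA PaCa-2 and 4 more negatively.

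In the cytoskeleton and matrix, 17 of 37 actin regulators were higher and 3 lower, 17 and 1 under median scaling. FSCN1, the fascin that bundles filopodial actin, read 7.11 and 7.11 with shCtrl and 10.85 and 10.72 with sh1319 (3.68, adjusted p = 1.8e-09). ACTA2, smooth muscle actin and 1 of the fibroblast markers, was at least 5.47-fold higher. TPM1, tropomyosin, rose by 2.25 and TAGLN, transgelin, by 1.64, while with sh1209 they changed by 0.23 and -0.82. CNN3, a calponin, was at least 2.70-fold lower. In Capan-1 5 of the list rose and 4 fell.

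Collagens and their processing enzymes had 11 of 24 higher and 0 lower, with a median of 0.40. COL1A2, a chain of type I collagen, read 6.13 and 6.07 against 10.47 and 10.35 (4.31, adjusted p = 7.1e-10), and its second probe rose by 3.59. COL1A1, the other chain, was not among the tested probes. COL3A1 was at least 6.78-fold higher, COL5A2 rose by 2.41, COL17A1, of hemidesmosomes, by 2.11, COL18A1 by 1.83 and P4HA2, the collagen prolyl hydroxylase, by 0.99. The summed linear level of the 10 fibroblast markers was 40.6 to 40.7 with shCtrl, 264 to 279 with sh1209 and 313 to 333 with sh1319. COL3A1 and ACTA2 were the 2 detected on both sh1319 arrays, and the other 8 were undetected there. In such bulk samples a change in the number of cells of a type and a change in RNA per cell cannot be told apart.

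Of 18 integrin subunits 3 were higher (16.7%, where 12.5% of all genes were) and 0 lower. ITGB4, which pairs with alpha 6 in hemidesmosomes, was at least 2.29-fold higher, ITGAV rose by 1.18 and ITGB5 by 0.39. ITGB1, the beta chain of collagen receptors, changed by 0.30 (adjusted p = 0.12). Of 34 genes of adhesion scaffolds and signalling 5 rose and 8 fell. CAV1, the coat protein of caveolae, read 8.47 and 8.18 with shCtrl and 11.22 and 11.32 with sh1319 (2.94, adjusted p = 5.1e-08). VCL, vinculin, rose by 0.97, LIMS1, an integrin-linked kinase partner, by 0.76, SH3GL1 by 1.14 and BCAR1, the p130Cas that FAK binds, by 0.87. ASAP1, an ARF GTPase-activating protein bound by FAK, fell by 1.37 and PAK2, a RAC effector kinase, by 0.72. The 8 falls became 1 under median scaling.

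Matrix glycoproteins had 4 higher and 4 lower of 29, 13.8% in each direction and near the 12.5% and 12.3% over all genes. Beside HAS3 and HAPLN1, LAMC1 and LAMB1, laminin chains, rose by 1.02 and at least 1.96-fold, GPC1, a glypican, rose by 0.75, and SDC1, SDC4 and FBLN1 fell by 1.09, 0.89 and 0.99. Proteases and their inhibitors had 5 higher (17.2%) and 7 lower (24.1%) of 29. TFPI, the tissue factor inhibitor, rose by 2.37 and CTSL, cathepsin L, by 1.37, while MMP10 was at least 2.47-fold lower and TIMP2 fell by 1.04. Of 31 epithelial junction genes 7 rose and 3 fell, with KRT80 (1.95) and MARVELD2, tricellulin (1.70), after CLDN1, and with the keratins KRT19, KRT8 and KRT18 lower by 1.47, 1.09 and 0.80 on the log2 scale. Of 15 mesenchymal genes 5 rose (GNG11 1.54, FGF2 0.94, MSN 0.69, EMP3 0.53 and ENG 0.44), and TGFBR2, the type II TGF-beta receptor, was at least 3.12-fold lower.

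ERK feedback and immediate early genes, which report the RAS and ERK pathway downstream of FAK, moved both ways, with 7 higher and 13 lower of 35. FOSL1, an AP-1 subunit, read 8.10 and 8.08 with shCtrl and 5.83 and 5.34 with sh1319 (-2.51, adjusted p = 3.8e-07). SPRY1, a sprouty inhibitor of receptor signalling, fell by 2.14 and IER3 by 1.65. JUND rose by 2.20, DUSP1, a MAP kinase phosphatase, by 2.26 and DUSP5 by 2.13. The transcription factor EGR1 (-1.88) and the ERK phosphatase DUSP6 (-1.25) were named after their values were seen. With sh1209 SPRY1 changed by -0.60, FOSL1 by -1.06 and EGR1 by -0.36.

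WNT and TGF-beta genes had 5 higher and 4 lower of 34 (14.7% and 11.8%), near the 12.5% and 12.3% over all genes. After TGFBR3, BAMBI, a decoy receptor of TGF-beta, rose by 3.88 and FZD8, a frizzled receptor, by 1.09. The WNT antagonist SFRP1 was at least 5.13-fold lower, DKK1, another antagonist, fell by 2.88 and SMAD4 fell by 0.88. NKD2 fell by 0.54, FZD2 rose by 1.17 and ID3 by 0.46. YAP and TEAD targets split 5 to 4 of 21 (23.8% higher and 19% lower). CCN2 was lower by 2.10 and CCN1 higher by 0.77. FJX1, LATS2 and CRIM1 were higher by 1.27, 0.97 and 0.72, and NUAK2 was at least 1.59-fold higher. ASAP1, GADD45B and MYOF were lower by 1.37, 0.87 and 0.42.

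Among genes associated with cancer stem cells, 5 of 19 rose and 3 fell. The shares were 26.3% and 15.8%, against 12.5% and 12.3% of all genes. ALDH1A1, an aldehyde dehydrogenase measured by the ALDH assay, read 9.70 and 9.68 with shCtrl and 12.41 and 12.32 with sh1319 (2.67 ± 0.11, adjusted p = 1.9e-08). It was higher with sh1209 as well (2.36) and with sh1319 in Capan-1 (1.76, adjusted p = 4.6e-06). ALDH3A2 rose by 0.88, BMI1, a polycomb repressor, by 1.00, MET by 0.55 and MYC by 0.37. ALDH7A1, SOX9 and ALDH1A3 fell by 1.21, 0.97 and 0.45. CD44 and CD24 did not pass (-0.30 and -0.09, adjusted p = 0.12 and 0.69).

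Of 30 lysosome and autophagy genes 14 rose and 0 fell, with ATP6V0D1, a proton pump subunit, at 7.71 and 7.80 with shCtrl and 9.46 and 9.40 with sh1319 (1.67, adjusted p = 1.6e-06). NEU1 rose by 1.03, ATP6AP1 by 0.76 and the autophagy kinase ULK1 by 0.83, and WIPI1 was at least 1.82-fold higher. With sh1209 12 of these genes were higher and 2 lower, and in Capan-1 9 and 0. Of 35 genes of the unfolded protein response and ATF4, 13 rose and 12 fell, 9 and 7 under median scaling. SLC7A11, the cystine transporter, rose from 4.66 and 4.93 with shCtrl to 7.11 and 6.99 with sh1319. HERPUD1, of the degradation of misfolded proteins, rose by 1.25 and the chaperone CALR by 1.08. GARS, the glycyl-tRNA synthetase, fell by 1.58, TRIB3, a pseudokinase induced by ATF4, by 1.03 and ATF4, the transcription factor itself, by 0.91. HSPA5, the chaperone BiP (1.06), was named after its values were seen.

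Of 24 NRF2 targets 5 rose and 4 fell, 3 and 4 under median scaling. The detoxifying quinone reductase NQO1 fell by 1.96, TXNRD1, thioredoxin reductase, by 1.43, GCLM, of glutathione synthesis, by 1.31 and FTH1, ferritin, by 0.93. OSGIN1 rose by 1.63 beside SLC7A11, ABCC2 by 0.76, ABCC3 by 0.51 and GPX2 by 0.36. Of 29 glycolysis and hypoxia genes 4 rose (ADM 2.77, PFKFB4 1.54, SLC16A3 1.22 and GPI 0.36) and 5 fell (ENO2 -1.51, HK2 -1.28, SLC2A3 -0.86, PGAM1 -0.50 and PFKP -0.44), and under median scaling 3 rose and 3 fell. The glycolysis shares under quantile normalization, 13.8% higher and 17.2% lower, were near the 12.5% and 12.3% over all genes. Respiratory chain genes had 1 higher (UQCRFS1 0.41) and 2 lower (SDHD -1.56 and UQCRQ -0.65) of 37, fewer than the background in either direction.

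Of 23 p53 targets 6 rose (26.1%) and 2 fell (8.7%), against 12.5% and 12.3% of all genes. SFN was among those that rose, and PMAIP1, the NOXA death activator, fell by 1.17. DDB2 was at least 1.56-fold lower, and FAS, the death receptor, read 4.75 and 4.42 against 6.47 and 6.94. BCL2 family and death receptor genes had 7 higher (24.1%) and 4 lower (13.8%) of 29. CASP9 and XIAP, its inhibitor, rose by 1.15 and 1.03. TNFRSF10D, BID and BIRC2 fell by 1.01, 0.70 and 0.43 beside PMAIP1. Of 22 S100 and annexin genes 9 rose and 4 fell. ANXA8 was at least 3.13-fold higher, ANXA5 rose by 0.99, and S100A16, S100A3, S100A13 and S100A10 fell by 1.58, 0.90, 0.81 and 0.64.

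Of 11 genes of microRNA and RNA interference machinery, which also processes hairpins, 7 were lower and 0 higher, but 1 was lower and 0 higher under median scaling. The values here are those of quantile normalization, with PRKRA, the PACT partner of Dicer, at 9.41 and 9.34 with shCtrl and 8.51 and 8.54 with sh1319 (-0.85, adjusted p = 0.00028). TARBP2 changed by -0.54, AGO1 by -0.61 and DROSHA, which cuts primary microRNAs, by -0.42. With sh1209 TARBP2 was the 1 gene lower (-0.81) and 0 were higher.

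A direct test of sh1319 against sh1209 in MIA PaCa-2 passed for 5478 probes, 2705 higher and 2773 lower with sh1319. Among probes that also differed from shCtrl, the largest positive differences were in COXFA4L3 (C15ORF48 in the file, a relative of a respiratory chain subunit), LOC100008589, ALOX5AP, RBM47 and CXCL5. COXFA4L3 read 8.03 and 7.98 with shCtrl, 6.05 and 5.55 with sh1209 and 10.04 and 10.03 with sh1319, so the hairpins lay on opposite sides of the control, as they did for RBM47, an RNA-binding protein (1.90 with sh1319 and -1.92 with sh1209). ALOX5AP, which leukotriene synthesis requires, was undetected with shCtrl, at 4.86 and 4.44 with sh1209, and at least 14.5-fold above shCtrl with sh1319. The largest negative differences reported here were in CALB2, LOC100134265, PODXL and CMBL. CALB2, calretinin, read 7.33 and 7.19 with shCtrl, 11.44 and 11.37 with sh1209 and 5.41 and 5.65 with sh1319, a difference of -5.88 ± 0.13 between the hairpins (adjusted p = 5.6e-10). PODXL, podocalyxin, changed by 2.87 with sh1209 and by -1.69 with sh1319. Second probes of CALB2 and PODXL did not pass for sh1319 against shCtrl (0.45 and -0.31). Between the hairpins the second CALB2 probe did not pass either (-0.30, adjusted p = 0.21), while that of PODXL did (-2.22, adjusted p = 6.7e-06).

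The change with sh1319 was also compared between the lines, which share no arrays. It differed for 3381 probes, 14% of those tested. Against shCtrl in Capan-1, 1682 probes (6.95%) were higher and 1640 (6.77%) lower with sh1319. Of the 2923 probes lower in MIA PaCa-2, 688 were also lower in Capan-1 (23.5% of the MIA PaCa-2 list and 42% of the Capan-1 list) and 98 were higher there. Of the 2964 higher probes, 624 were also higher in Capan-1 (21.1% and 37.1%) and 117 were lower there. TUBB2B, KLK6, MMP1, HLA-DRA and AGPAT9 had the largest negative differences and ANXA10, AKR1C4, PDLIM1, HAS3 and SFN the largest positive ones. HLA-DRA, an MHC class II chain, changed by -2.81 in MIA PaCa-2 and by 1.95 in Capan-1 (difference -4.76 ± 0.24, adjusted p = 3.1e-07), and its brighter second probe changed by less (-0.98 and 0.45). ANXA10 rose by 5.31 in MIA PaCa-2 and fell by 1.37 in Capan-1 (adjusted p = 9.4e-05). MMP1 was undetected in Capan-1 on both the shCtrl and the sh1319 arrays, so no fall could be measured there.

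A set of genes was lower with sh1319 than with both other hairpins in both lines, a set chosen after the values were seen. It held 211 probes, 14% of the 1503 that were lower than both in MIA PaCa-2 and 47% of the 449 that were so in Capan-1. Their median change with sh1209 in MIA PaCa-2 was 0.04, but choosing probes lower with sh1319 than with sh1209 favours such a value. POC1A, a centriole protein named WDR51A in the file, read 9.59 and 9.67 with shCtrl, 9.75 and 9.55 with sh1209 and 6.95 and 6.44 with sh1319. MED28, a Mediator subunit, read 9.31 and 9.26, 9.66 and 9.52, and 7.01 and 6.96 in the same order. ATP6V0E1, a vacuolar proton pump subunit, read 11.08 and 11.22, 11.46 and 11.54, and 8.45 and 8.67. In Capan-1 these 3 changed by -1.60, -1.47 and -0.93 with sh1319. Their Capan-1 means with shCtrl and with sh1209 were 9.63 and 8.95 for POC1A, 9.47 and 9.14 for MED28 and 10.89 and 11.15 for ATP6V0E1. The sh1209 levels there were therefore not all at those of the control. GMNN, geminin, PRKAG1, an AMP kinase subunit, PSMA1, a proteasome subunit, and YES1, a SRC family kinase, belonged to the set as well, with changes of -2.21, -2.26, -2.42 and -2.15 in MIA PaCa-2. The converse set, higher than both other hairpins in both lines, held 124 probes (8.05% of 1540 and 27.4% of 452), among them TGFBR3, NCEH1, a cholesterol ester hydrolase (3.17), FKBP14, a collagen chaperone (2.12) and a second probe of MSMO1 (2.25). Transcripts of this set were not searched for matches to the hairpin, whose sequence was not used here.

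**Figure D4:**
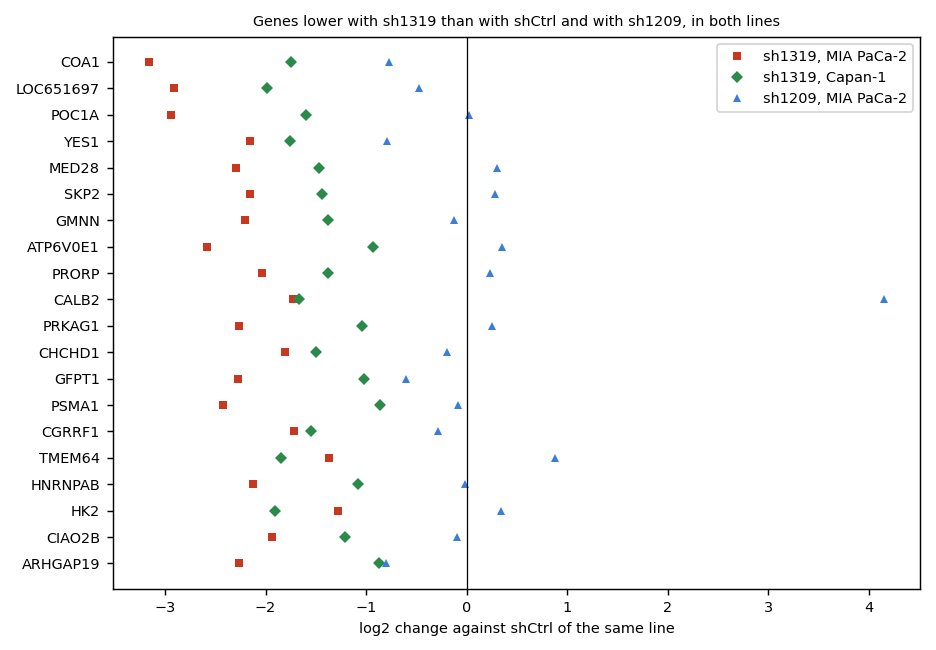
Log2 change against the shCtrl of the same line for 20 genes lower with sh1319 than with shCtrl and with sh1209 in both lines: sh1319 in MIA PaCa-2 (red squares), sh1319 in Capan-1 (green diamonds) and sh1209 in MIA PaCa-2 (blue triangles). POC1A lies at -2.94 and -1.60 with sh1319 and at 0.02 with sh1209, while CALB2 lies at 4.15 with sh1209. The change with sh1209 in Capan-1 is not drawn.

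Small non-coding RNAs were grouped by name after their values were seen and are given as a description. Of 315 probes 89 (28.3%) were higher and 12 (3.81%) lower with sh1319 in MIA PaCa-2, against 12.2% and 12.1% of all probes, and 214 did not pass (79 higher and 1 lower under median scaling). RN7SK, the 7SK RNA that holds the elongation factor P-TEFb inactive, read 5.98 and 5.93 with shCtrl, 7.17 and 7.28 with sh1209 and 10.50 and 10.48 with sh1319, a 23.1-fold rise. Of 17 probes for spliceosomal U RNAs 14 were higher and 0 lower, with a median change of 1.83 against 0.05 with sh1209, and RNU4-2 read 6.94 and 7.07 against 10.12 and 10.18. SNORD3A, the U3 RNA of ribosomal RNA processing, rose by 3.69. Many of these genes are near-identical copies, so the probes are not independent.

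C/D box snoRNAs had 28 higher of 86 and H/ACA box snoRNAs 29 of 83. With sh1209 36 of the H/ACA class were higher, where 2190 of all 24207 probes were. MicroRNA probes had 6 higher and 5 lower of 99, with a median change of -0.05, and 1 higher and 1 lower under median scaling. Their shares, 6.06% and 5.05%, were below the 12.2% and 12.1% over all probes. The 7SL probe did not pass, and of 2 vault RNA probes 1 was lower, but 0 under median scaling. In Capan-1 3 of the 315 were higher and 24 lower. The median of the class was 5.15 and 5.18 on the shCtrl arrays and 5.38 and 5.30 on the sh1319 arrays. The labels give an RNA integrity number of at least 7 for every sample and no value for a single one, and the part of RNA recovery or quality in these rises was not tested.

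**Figure D5:**
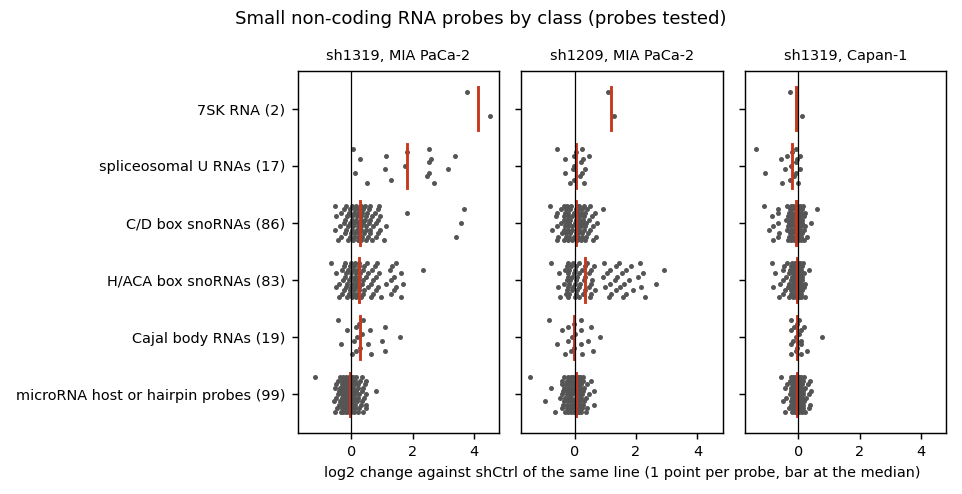
Log2 change against the shCtrl of the same line for small non-coding RNA probes by class, 1 point per probe with a red bar at the median, for sh1319 in MIA PaCa-2, sh1209 in MIA PaCa-2 and sh1319 in Capan-1. Spliceosomal U RNAs have medians of 1.83, 0.05 and -0.20 in the 3 panels, and microRNA probes lie about 0 in each.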

How the data were processed

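Gene expression in 12 samples was measured on 1 Illumina HumanHT-12 v4 chip, 2 arrays in each of 6 groups, and groups were taken from the sample labels (shFAK1319 in Capan-1 was read as sh1319). The authors deposited for each probe a mean intensity, not normalised, and a detection p-value, exported with GenomeStudio 2011.1 per the submitters' processing notes. Of 47320 rows, 92 were spike-in controls. In 54 rows the gene name was a date and was kept. Intensities were background-corrected with limma's nec (offset 16, which understates changes of dim probes), quantile-normalised and put on the log2 scale in R 4.3.3. Probes detected (p under 0.05) on at least 2 of the 12 arrays were tested, 24207 in all, with limma 3.58.1 on 6 group means (6 residual degrees of freedom) and Benjamini-Hochberg adjustment within each comparison. The number of arrays limits the precision. File names were replaced by a current RefSeq symbol where one matched (21041 of 34599 names). "At least" folds set the bright group against the lowest signal among detected probes.

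Members and gene lists were chosen with earlier results of these data known. Named genes were PTK2, the 12 largest rises and falls, up to 6 members of each list by adjusted p with any others that a count of 5 or fewer singles out, and the 5 largest differences in each direction between hairpins and between lines. The largest rises and falls were picked among probes past the threshold with both sh1319 arrays beyond both control arrays. Other members named in the text, the small RNA classes and the set shared by both lines were chosen after their values were seen. A few genes are not reported here by name and stay in the counts. In a list, the probe with the highest mean stood for its gene. Values were checked against other scalings, filters, probes per gene, array weights, a replicate block, left-out arrays and the methods' t-test. On simulated data with 200 of 24207 probes changed, the test of sh1319 against shCtrl in MIA PaCa-2 found 98% of those set to a log2 change of 1 and 100% at 1.5, and 1% of its calls were false. The simulation drew independent normal noise of the fitted spread, without a normalization step and with no change in the other probes. It therefore does not give the false share among the calls of the data. Promoter windows came from RefSeq (GRCh38.p14). Figures were drawn with matplotlib 3.10.9.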

Additional observations from a re-analysis of the deposited data

Results flagged for a closer look

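The change with sh1319 differed between MIA PaCa-2 and Capan-1 by a test of the difference itself for 3381 probes, and PTK2, the 12 largest rises and 11 of the largest falls were among those reported here. For PTK2 the change in MIA PaCa-2 minus that in Capan-1 was -0.71. For the rises it was 5.89 for AKR1C4, 5.72 for PDLIM1, 5.11 for CASP1, 5.61 for HAS3, 6.68 for ANXA10, 5.49 for SFN and 4.40 for RN7SK. It was 4.94 for IL1B, 4.27 for COL1A2, 2.97 for TGFBR3, 2.92 for CLDN1 and 2.07 for C6ORF105 (ADTRP), and the last 3 of these also rose in Capan-1. For the falls it was -6.22 for TUBB2B, -5.78 for KLK6, -5.14 for MMP1, -4.53 for AGPAT9, -4.03 for HAPLN1, -3.74 for TNFSF4, -3.37 for RNF182, -3.18 for KRT81, -3.01 for KIF1A, -2.88 for SERPINE2 and -1.41 for C7ORF44 (COA1). SERPINE2 and COA1 also fell in Capan-1 (-0.68 and -1.75). MMP1, HAPLN1, TNFSF4, RNF182, KIF1A and KRT81 were undetected in Capan-1 with shCtrl and with sh1319. For these undetected genes the difference restates the change in MIA PaCa-2. The genes were picked for their change in MIA PaCa-2, which favours large differences.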

How the results depend on the processing

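PTK2 kept its direction and its side of the threshold under every alternative run except the methods' t-test, which gave the same change of -2.48 with an adjusted p of 0.059. The 12 largest rises, the 12 largest falls and the dim PTK2 probe did so in 200 of 200 values, under median scaling, no background correction, MIA PaCa-2 arrays alone, the replicate block and left-out arrays. The t-test, array weights, trend and filters were not run for them one by one, nor was any alternative for single list members, beyond the list counts. The counts moved under 3 settings, and that for the difference between the lines also moved without Capan-1 shCtrl replicate 1. Median scaling left 3846 probes past the threshold for sh1319 against shCtrl, 3477 for sh1319 against sh1209 and 1673 for the difference between the lines, and its median change over all probes was 0.04. The methods' t-test left 4, 1 and 1776 after Benjamini-Hochberg adjustment, and 5646, 5492 and 5795 at an unadjusted p of 0.05. A minimum log2 change of 1 left 419 for sh1319 against shCtrl. Leaving out 1 array at a time gave 4141 to 4776, 4079 to 4310 and 2252 to 2761 probes, the lowest of the last without Capan-1 shCtrl replicate 1, and a PTK2 change of -2.53 to -2.43. List medians moved by less than the replicate spread in 300 cases and by more in 60. Some medians near 0 changed sign, such as that of the adhesion scaffold genes (0.04 under median scaling). With 2 arrays a group, changes near the detection limit carry a bound alone.

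The replicate number as a block gave 5626 probes for sh1319 against shCtrl, 5272 for sh1319 against sh1209, 3025 for the difference between the lines and a PTK2 change of -2.48 (adjusted p = 2.3e-06), none of them more than 1.5 times from the value without it. The deviations of the 2 replicates correlated at -0.053 between shCtrl and sh1319, so the numbers did not pair the arrays.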
